A study of Mus musculus with 16 samples.

Results

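Bicc1, the gene targeted by the siRNAs of this experiment, was described together with 5 genes whose products are linked to the Bicc1 protein or to polycystic kidney disease: Pkd1, Anks3, Anks6, Tsc1 and Tsc2. The members were every probe that the platform annotation pairs with one of these 6 symbols, which gave 10 of the 25697 probes in the deposited table and 6 of 16593 named genes. Bicc1, Pkd1 and Tsc1 had 1 probe each, Anks6 and Tsc2 had 2, and Anks3 had 3. Each gene had at least 1 probe detected on all 16 arrays (detection p under 0.05), so no member was dropped. The probe with the highest mean stood for its gene, and the others were read beside it. Pkd2, which encodes the partner of the Pkd1 product, was paired with no probe and is not analysed here.

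The cells were primary osteoblasts, the bone-forming cells, released by collagenase P from the calvariae of C57BL6/J mice aged 3 to 9 days and of mixed sex. RNA was taken 48 hours after lipid transfection. By the labels, the 4 groups of 4 arrays differ in the siRNA: a scrambled control (SC) or one of 3 siRNAs to Bicc1, named BICC1_1, BICC1_2 and BICC1_3. The labels do not say whether the arrays of a group came from separate cultures or litters, so each p-value reflects how far these arrays spread and nothing wider, and that spread may be technical.

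Bicc1 is an RNA-binding protein with KH domains, which bind RNA, and a SAM domain, through which it forms large assemblies. In mice its loss causes cystic kidneys, and Bicc1 has been reported to bind the mRNAs of other genes and to change their stability or translation through the CCR4-NOT deadenylase. Polycystin-1, the Pkd1 product, is a large membrane receptor that is mutated in polycystic kidney disease and is also needed in osteoblasts. ANKS3 and ANKS6 are ankyrin-repeat proteins with SAM domains that bind the SAM domain of BICC1 and one another, and ANKS6 activates the kinase NEK8 in cilia. TSC1 and TSC2 form the complex that holds back mTORC1, and Tsc2 lies next to Pkd1 on the same chromosome, with annotated spans that overlap at their ends (RefSeq, assembly GRCm38.p6).

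Median intensity ran from 84.8 to 111.3 across the arrays, and 11990 to 12863 probes were detected on each. Of 9 osteoblast markers with a probe, 3 were detected on all 16 arrays (Sp7, Col1a1 and Col1a2) and 2 on none (Bglap and Dmp1, genes of mature osteoblasts and osteocytes). Of 5 macrophage markers 4 were detected on all 16 (Adgre1, Lyz2, Mrc1 and Cd14) and Ptprc on none. Of 5 muscle markers Acta1 was detected on all 16 and Ckm on none, and of 4 endothelial markers none was detected on all 16 and 3 on none. The summed linear levels of the 4 macrophage genes that passed the filter ran from 4330 to 4960 in SC, 4460 to 8640 with BICC1_1, 3600 to 4930 with BICC1_2 and 4760 to 6300 with BICC1_3. Those of the 3 muscle genes that passed it ran from 1560 to 2160, 2010 to 2360, 2280 to 2650 and 1710 to 2120 in the same order, so that BICC1_2 did not overlap SC. Acta1, the brightest of these, read log2 10.86 to 11.03 with BICC1_1, 10.74 to 11.02 with BICC1_2 and 10.21 to 10.72 in SC. Of all genes, 6.35% had BICC1_1 arrays and 6.6% had BICC1_2 arrays clear of SC. Myl1 and Myog overlapped SC. The chondrocyte markers Sox9 and Col2a1 were also detected on all 16 arrays. In the order of the siRNAs Sox9 differed from SC by 0.19, 0.41 and 0.44 and Col2a1 by -0.43, -0.17 and -0.38. Neither passed the test. The part of any of these cell types in the results was not tested. In such bulk RNA fewer cells of a type and less RNA per cell cannot be told apart. Replicate 3 of BICC1_1, replicate 3 of BICC1_2 and replicate 1 of BICC1_3 stood apart from the other 13 arrays in the median log2 level of 33 Nduf genes (subunits of respiratory complex I), by -0.77, -0.24 and -1.46 against -0.04 to 0.05 on the others. The same 3 arrays had the highest Bicc1 value of their groups. For the members, the main results that rest on them are given with and without them.

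Bicc1 was lower with BICC1_1 and BICC1_2 and was not lower, beyond the spread of the arrays, with BICC1_3. In SC its background-corrected, quantile-normalised log2 intensity read 10.59, 10.66, 10.59 and 10.38. It read 9.51, 9.81, 9.88 and 9.42 with BICC1_1, and 8.87, 9.04, 9.27 and 8.69 with BICC1_2. The arrays labelled BICC1_3 read 10.70, 10.39, 10.39 and 10.33, inside or just beside the SC range, while neither of the other siRNA groups overlapped SC or one another. Before normalisation the same probe ran from 1181.9 to 1880.2 intensity units in SC, 692.3 to 1121.6 with BICC1_1, 434.6 to 813.9 with BICC1_2 and 1063.5 to 1672.4 with BICC1_3.

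On the log2 scale Bicc1 differed from SC by -0.90 with BICC1_1 (SE 0.13; adjusted p = 0.0345 by limma), with a 95% interval of -1.17 to -0.62, which leaves 53.7% of the control level. With BICC1_2 the difference was -1.59 (SE 0.13; limma adjusted p = 7.98e-06), leaving 33.3% (95% interval 27.5% to 40.3%). With BICC1_3 it was -0.10 (SE 0.13; limma adjusted p = 0.776), 93.3% of control with an interval of 77.1% to 113%. Bicc1 was also lower with BICC1_2 than with BICC1_1, by -0.69 (limma adjusted p = 0.043; 0.0376 with these 8 arrays paired by replicate number). The BICC1_2 fall passed the test under all 28 alternative settings, whereas the BICC1_1 fall passed under 16 of them and the difference between the siRNAs under 11, with sizes of -0.98 to -0.78 and -0.79 to -0.53. With those 3 arrays left out Bicc1 differed from SC by -0.98, -1.70 and -0.18 in the order of the siRNAs.

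**Figure D1:**
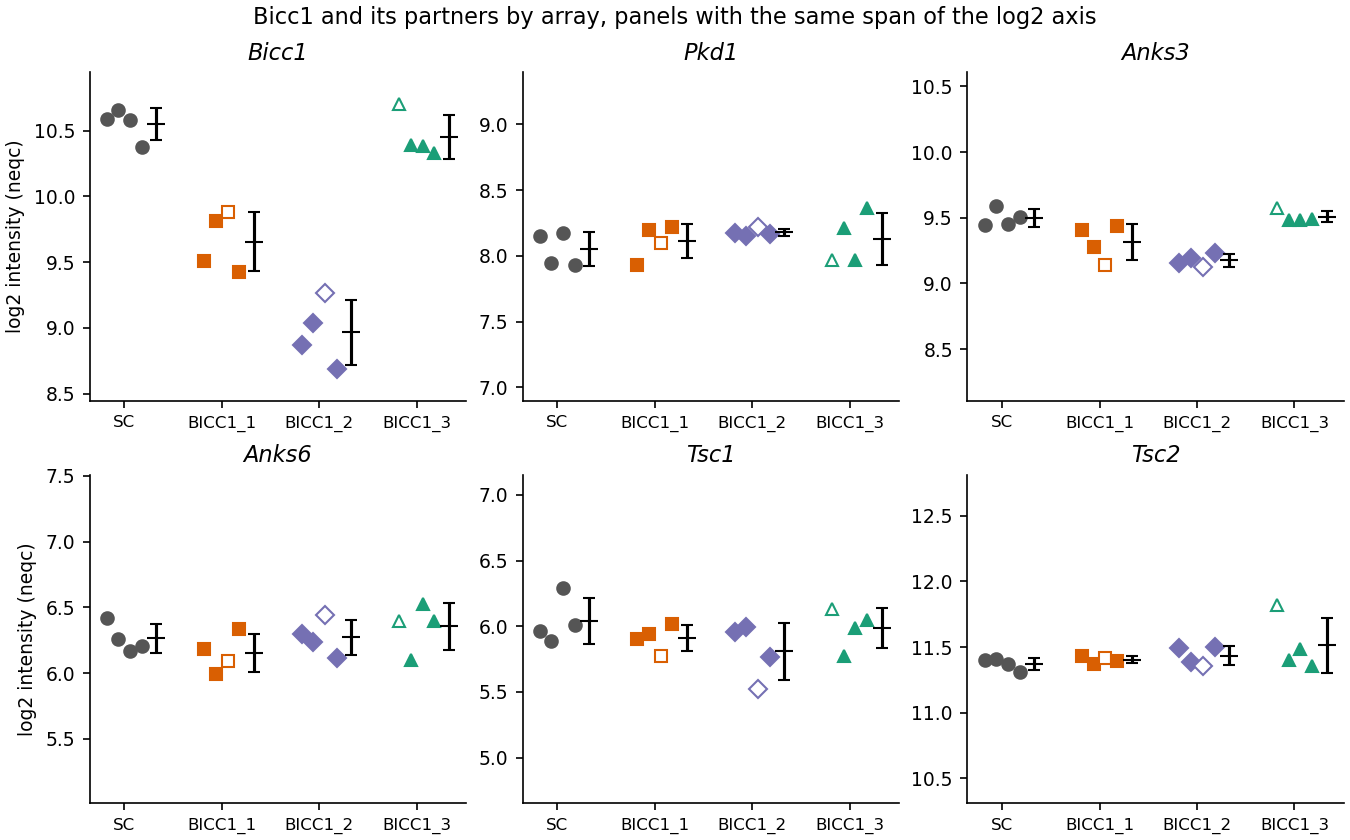
Log2 intensity (neqc) of the probe that stands for each gene on every array, by siRNA group; symbols are arrays, open symbols the 3 arrays that stood apart, and the bar beside each group is its mean with 1 SD. All panels span the same log2 range: Bicc1 means run from 8.97 to 10.55, Anks3 means from 9.18 to 9.51, and the means of Pkd1, Anks6, Tsc1 and Tsc2 each lie within 0.23 of one another.

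Anks3 was the partner whose level differed most between the groups, yet it did not pass the test in any of the 6 comparisons. Its brightest probe read 9.44, 9.59, 9.45 and 9.51 on the SC arrays. With BICC1_1 it read 9.41, 9.28, 9.14 and 9.43, and with BICC1_2 9.15, 9.19, 9.12 and 9.23. On the BICC1_3 arrays it read 9.58, 9.48, 9.49 and 9.49, so the order of the group means was BICC1_2, BICC1_1, SC and BICC1_3 from low to high. Neither the BICC1_1 nor the BICC1_2 arrays overlapped SC, although the closest BICC1_1 and SC values, 9.43 and 9.44, almost met; SC and BICC1_3 overlapped, as did BICC1_1 and BICC1_2.

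The log2 difference of Anks3 from SC was -0.18 with BICC1_1 (95% interval -0.33 to -0.03; unadjusted p = 0.0204, adjusted p = 0.683 by limma). With BICC1_2 it was -0.32 (-0.47 to -0.17; unadjusted p = 0.000335, adjusted p = 0.159 by limma). With BICC1_3 it was 0.01 (-0.14 to 0.16; limma adjusted p = 0.968). Anks3 was the 1 partner of 5 whose arrays did not overlap in these comparisons, where 6.35% of all genes had BICC1_1 arrays clear of SC and 6.6% had BICC1_2 arrays clear of SC. It was also the 1 of 5 clear between BICC1_3 and BICC1_1 (2.79% of all genes) and between BICC1_3 and BICC1_2 (3.84%). No partner was clear between BICC1_3 and SC (6.59%) or between BICC1_2 and BICC1_1 (4.56%). In the test for any difference among the 4 groups Anks3 had the 47th smallest p of 9560 (limma F-test, adjusted p = 0.115). Its difference with BICC1_2 lay between -0.34 and -0.25 over 28 alternatives and passed the test in 1 of them, where arrays were weighted by quality (-0.32, limma adjusted p = 0.00773, in a range over the alternatives of 0.00773 to 1). Over the 13 other arrays it was -0.13 with BICC1_1 and -0.31 with BICC1_2 (limma adjusted p = 0.441 and 0.0771). The muscle gene Acta1 stood above SC by 0.51 with BICC1_1 and 0.42 with BICC1_2 (limma adjusted p = 0.124 and 0.239). The other tested muscle genes, Myl1 and Myog, differed from SC by -1.37 and -0.32 with BICC1_1 and by 1.33 and 0.04 with BICC1_2. The part of muscle cells in the Anks3 values was not tested.

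The Anks3 probes disagreed on BICC1_1. The second probe, dimmer but detected on all 16 arrays, read 6.53, 6.63, 6.61 and 6.40 in SC and 6.58, 6.54, 6.64 and 6.52 with BICC1_1. With BICC1_2 it read 6.05, 5.84, 6.20 and 6.05, and on the BICC1_3 arrays 6.80, 6.61, 6.32 and 6.38. On this probe the BICC1_2 arrays lay below all others, while BICC1_1, SC and BICC1_3 overlapped. Its log2 difference from SC was 0.03 with BICC1_1 (95% interval -0.19 to 0.25) and -0.02 with BICC1_3 (-0.23 to 0.20). With BICC1_2 it was -0.51 (-0.72 to -0.29; limma adjusted p = 0.143 over 12802 probes), and BICC1_2 stood below BICC1_1 by -0.53 (limma adjusted p = 0.0545). Over the 13 other arrays the BICC1_2 difference from SC was -0.55 and passed the test (limma adjusted p = 0.0304), and leaving out BICC1_3 replicate 1 alone gave an adjusted p of 0.0404, in a range over the alternatives of 0.00292 to 0.96. This difference passed in 3 of 28 alternatives, and its size was -0.13 in the authors' deposited table, -0.29 without background correction and -0.35 with an offset of 50. The difference from BICC1_1 passed in 4 of 28, and pairing the 8 arrays by number gave an adjusted p of 0.108 by limma. The third probe was detected on 7 of 16 arrays and differed from SC by 0.05, -0.13 and 0.29 in the order of the siRNAs, each with an interval that includes 0. Which part of the transcript each probe reads is not given in the sources used here.

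**Figure D2:**
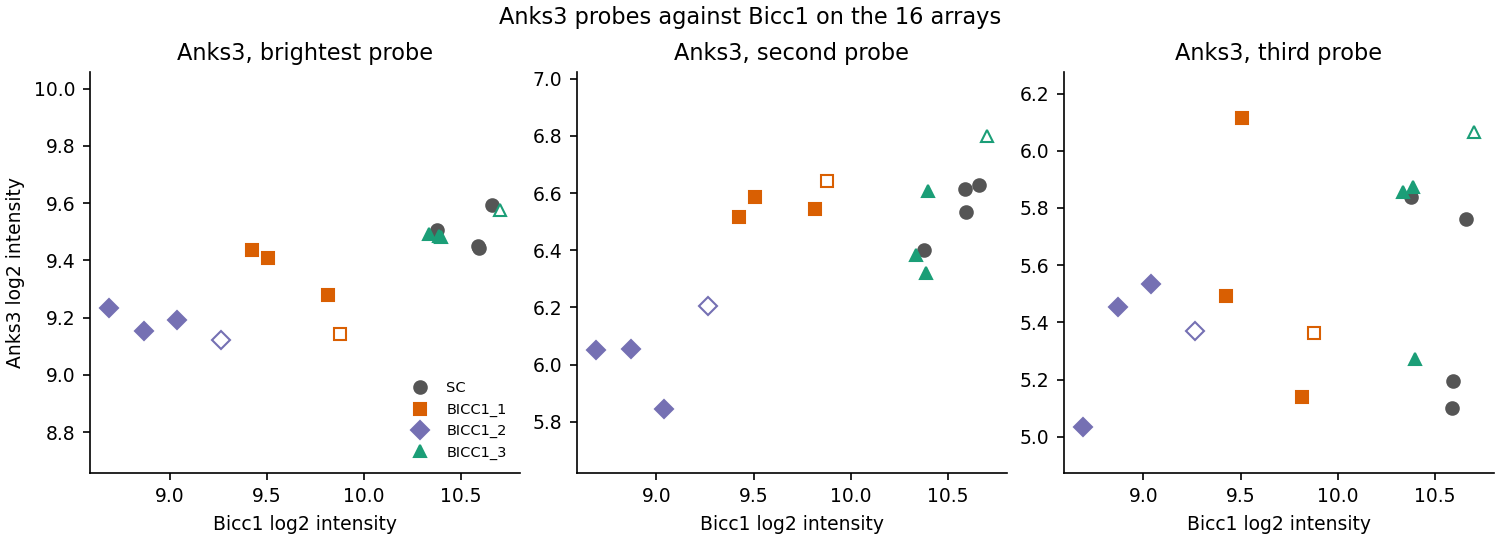
Log2 intensity of the 3 Anks3 probes (vertical) against that of Bicc1 (horizontal) on the 16 arrays, open symbols marking the 3 arrays that stood apart. On the brightest probe both Bicc1-low groups lie below the others; on the second only the BICC1_2 arrays, at 5.84 to 6.20, do; the third, detected on 7 arrays, shows no separation of the groups.

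Anks6, the activator of NEK8, passed the adjusted test on neither of its probes. Its brighter probe averaged 6.27 ± 0.11 (SD, n = 4) in SC, 6.15 ± 0.14 with BICC1_1, 6.27 ± 0.13 with BICC1_2 and 6.36 ± 0.18 with BICC1_3, and all 4 groups overlapped. The log2 differences from SC were -0.11 (95% interval -0.33 to 0.10), 0.01 (-0.21 to 0.22) and 0.09 (-0.13 to 0.31) in the order of the siRNAs. The second probe, detected on 14 arrays, gave -0.10, -0.09 and -0.22, so for BICC1_3 the probes point in opposite directions. Its 95% interval with BICC1_3 was -0.43 to -0.004 (unadjusted p = 0.0461, adjusted p = 0.496 by limma over 12802 probes). Both probes lay near the floor of detection: the brighter one ran from 107.5 to 167.4 intensity units, where the dimmest detected probe of an array had 89.6 to 117.2. Background of this size can shrink differences on the array, so the intervals bound the measured difference in log2 intensity and not the change of the transcript.

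Pkd1, the polycystin-1 gene, was measured slightly above SC in all 3 siRNA groups, within the spread of the arrays. It averaged 8.05 ± 0.13 (SD, n = 4) in SC, 8.11 ± 0.13 with BICC1_1, 8.18 ± 0.03 with BICC1_2 and 8.13 ± 0.19 with BICC1_3. The arrays of all groups overlapped between 7.93 and 8.36, and the 4 BICC1_2 arrays, at 8.15 to 8.22, were the closest together. Pkd1 differed from SC by 0.06 with BICC1_1 (95% interval -0.15 to 0.27), 0.13 with BICC1_2 (-0.08 to 0.33) and 0.08 with BICC1_3 (-0.13 to 0.28). In the comparison with the lowest Bicc1, the interval thus reaches from 94.7% to 126% of the control level (limma adjusted p = 1).

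Tsc1 and Tsc2, which encode the mTORC1-inhibiting complex, did not pass the test either. Tsc1 averaged 6.04 ± 0.18 (SD, n = 4) in SC, 5.91 ± 0.10 with BICC1_1, 5.81 ± 0.22 with BICC1_2 and 5.99 ± 0.15 with BICC1_3, and every group overlapped the others. From low to high the means ran BICC1_2, BICC1_1, BICC1_3 and SC, the order of Bicc1. They spanned 0.23, beside a mean SD inside groups of 0.16. The differences of Tsc1 from SC were -0.13 (95% interval -0.37 to 0.11), -0.23 (-0.47 to 0.01) and -0.05 (-0.29 to 0.19), at intensities of 105.4 to 139.1, close to the floor of detection. The lowest BICC1_2 array of Tsc1, 5.52, was replicate 3, which stood apart. The BICC1_2 difference was -0.13 without that array, -0.13 without all 3 such arrays, -0.14 without SC replicate 3 and -0.05 in the authors' deposited table.

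Tsc2, the subunit that acts on the GTPase Rheb, averaged 11.37 ± 0.05 in SC, 11.40 ± 0.03 with BICC1_1, 11.44 ± 0.07 with BICC1_2 and 11.51 ± 0.21 with BICC1_3. Replicate 1 of BICC1_3 read 11.82, above the other 15 arrays, and its group differed from SC by 0.14 (95% interval -0.04 to 0.32) with it and by 0.04 without it. The second probe gave differences of 0.08, 0.02 and 0.10 against 0.03, 0.06 and 0.14 for the brighter probe. On the second probe too, replicate 1 of BICC1_3 was highest, at 11.06 beside 10.72, 10.72 and 10.58 on the other arrays of its group. The difference without it was not computed for that probe.

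Across the 5 partners, 0 passed the adjusted test in each of the 6 comparisons of groups. The share of all 9560 genes that passed was itself small: 0.0209% for BICC1_1 against SC, 0.0523% for BICC1_2, 0.0105% for BICC1_3, 0.282% for BICC1_2 against BICC1_1, 0.0732% for BICC1_3 against BICC1_1 and 0.115% for BICC1_3 against BICC1_2. At these shares no call among 5 genes is what the background gives, and it does not show that the partners did not differ. At an unadjusted p under 0.05, Anks3 was the 1 partner of 5 to pass for BICC1_1 against SC (6.16% of all genes), BICC1_2 against SC (5.24%), BICC1_3 against BICC1_1 (6.09%) and BICC1_3 against BICC1_2 (8.28%). By the probe that stands for each gene, no partner passed at that level for BICC1_3 against SC (9.24%) or BICC1_2 against BICC1_1 (6.38%). The median log2 difference of the partners from SC was -0.11, 0.01 and 0.08, beside medians over all genes of 0.00, 0.00 and -0.01. These 3 comparisons share the SC arrays. The intervals of the 5 partners did not reach those of Bicc1 with BICC1_1 or BICC1_2: their lowest bounds were -0.37 and -0.47, where the intervals of Bicc1 ended at -0.62 and -1.31. The bound of -0.37 was that of Tsc1. For Tsc1 and Anks6, near the floor of detection, the intervals bound the measured difference and not the change of the transcript.

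**Figure D3:**
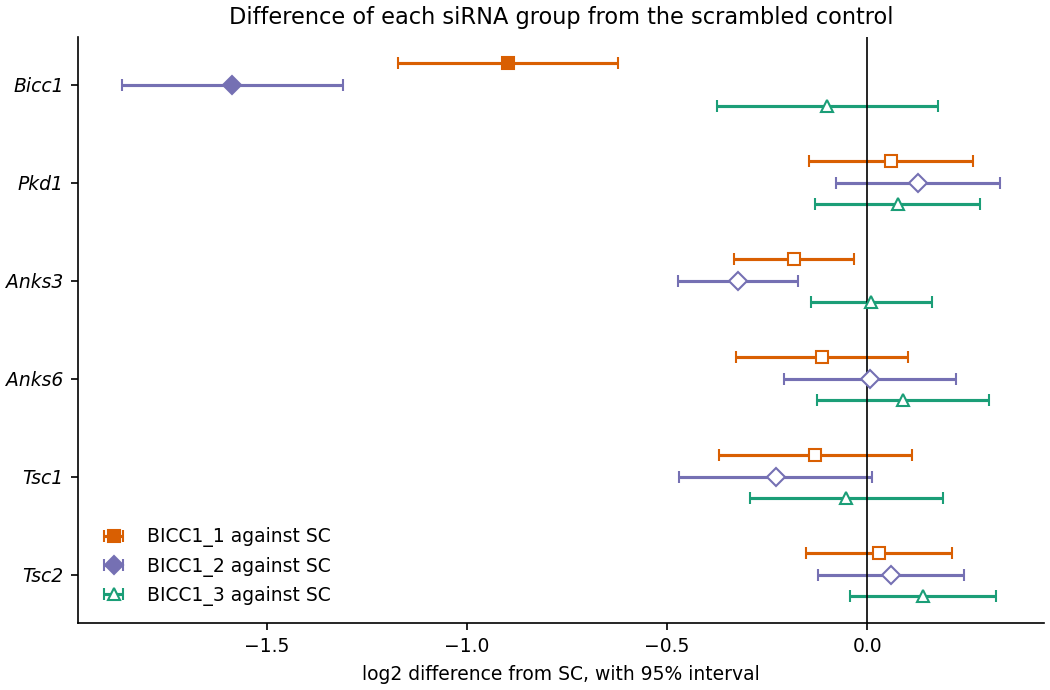
Log2 difference of each gene from SC with its 95% interval from the limma fit, for the 3 siRNAs; filled symbols passed the adjusted test. Bicc1 passed with BICC1_1 and BICC1_2; the intervals of Anks3 lie below 0 for the same siRNAs but its adjusted p values were 0.683 and 0.159, and the intervals of the other partners include 0.

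Whether partners follow Bicc1 array by array was asked inside the groups, where the siRNA is the same and the spread is between arrays. Each value was taken as its deviation from the mean of its group. Bicc1 deviated by -0.28 to 0.30 on the log2 scale. Anks3 was the partner most like Bicc1 between groups, but inside them r of its brightest probe was negative and did not pass the test. In SC and BICC1_3 this probe was highest on the array where Bicc1 was highest. In BICC1_1 and BICC1_2 it was lowest there. The second Anks3 probe was not put to this test. In each group it was highest on the array where Bicc1 was highest, and outside SC that array was one that stood apart. For the brightest probe Pearson's r was -0.46 and Spearman's rho -0.48 over 16 arrays. By exact within-group permutation over all 331776 orders, two-sided, p was 0.148 and 0.113 (adjusted over the 5 partners, 0.741 and 0.565). The deviation of that probe had the sign of that of Bicc1 on 7 of 16 arrays. These orders treat the arrays as independent. Same-numbered BICC1_1 and BICC1_2 arrays, whose deviations correlated, most of all on replicate 3, were also reordered jointly over 13824 orders. The exact permutation p of r was then 0.242 for Anks3 and 0.383 or higher for the other partners (adjusted over the 5, 0.797 for each).

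Pkd1 gave r = -0.07 (exact permutation p = 0.802) and Anks6 r = 0.07 (exact permutation p = 0.824). Tsc1 gave r = -0.22 (exact permutation p = 0.488) and Tsc2 r = 0.24 (exact permutation p = 0.381), and the adjusted p was 0.814 or higher for these 4. Spearman's rho was -0.09, -0.04, -0.19 and 0.01 for Pkd1, Anks6, Tsc1 and Tsc2, with exact permutation p of 0.549 to 0.98. Leaving out the 2 arrays with Bicc1 farthest from the median, replicates 3 and 4 of BICC1_2, gave r of -0.15, -0.38, -0.29, -0.05 and 0.52 for Pkd1, Anks3, Anks6, Tsc1 and Tsc2. Over the 13 other arrays r was 0.10, -0.48, -0.19, 0.10 and -0.12 in the same order, so of the 5 only Anks3 kept its sign. With arrays scaled to their medians in place of quantiles, r was 0.51 for Pkd1, 0.35 for Anks3 and 0.60 for Tsc2, which turns the sign for Pkd1 and Anks3.

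In the limma fit over all genes with the Bicc1 deviation as a term beside the group, 0 of 5 partners passed, where 0.0732% of 9559 genes did; 0 of 5 also passed without adjustment, where 26.5% of all genes had an unadjusted p under 0.05. The slope, in log2 units per log2 unit of Bicc1, was -0.05 for Pkd1 (95% interval -0.48 to 0.39), -0.19 for Anks3 (-0.49 to 0.11), 0.05 for Anks6 (-0.41 to 0.51), -0.19 for Tsc1 (-0.70 to 0.31) and 0.14 for Tsc2 (-0.24 to 0.52). The adjusted p ran from 0.392 to 0.900. The genes with the smallest p were Miga1, a mitochondrial fusion factor, at a slope of 1.00 (limma adjusted p = 0.0294), Map1b, a microtubule-associated protein, at 1.12, and Eva1c at 1.20 (both 0.033). In this fit 7 genes passed, and over the alternatives 0 to 1673 did. Slopes of these genes without the arrays that stood apart are not given, and the part of those arrays in them was not tested. Inside the groups r with the Nduf median was -0.60 for Bicc1, 0.38 for Pkd1, 0.10 for Anks3, -0.09 for Anks6, -0.03 for Tsc1 and -0.76 for Tsc2. Over the 13 other arrays these r were 0.45, 0.49, -0.74, -0.31, 0.29 and -0.20 in the same order. The part of those arrays in the partners' relations beyond these values was not tested.

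**Figure D4:**
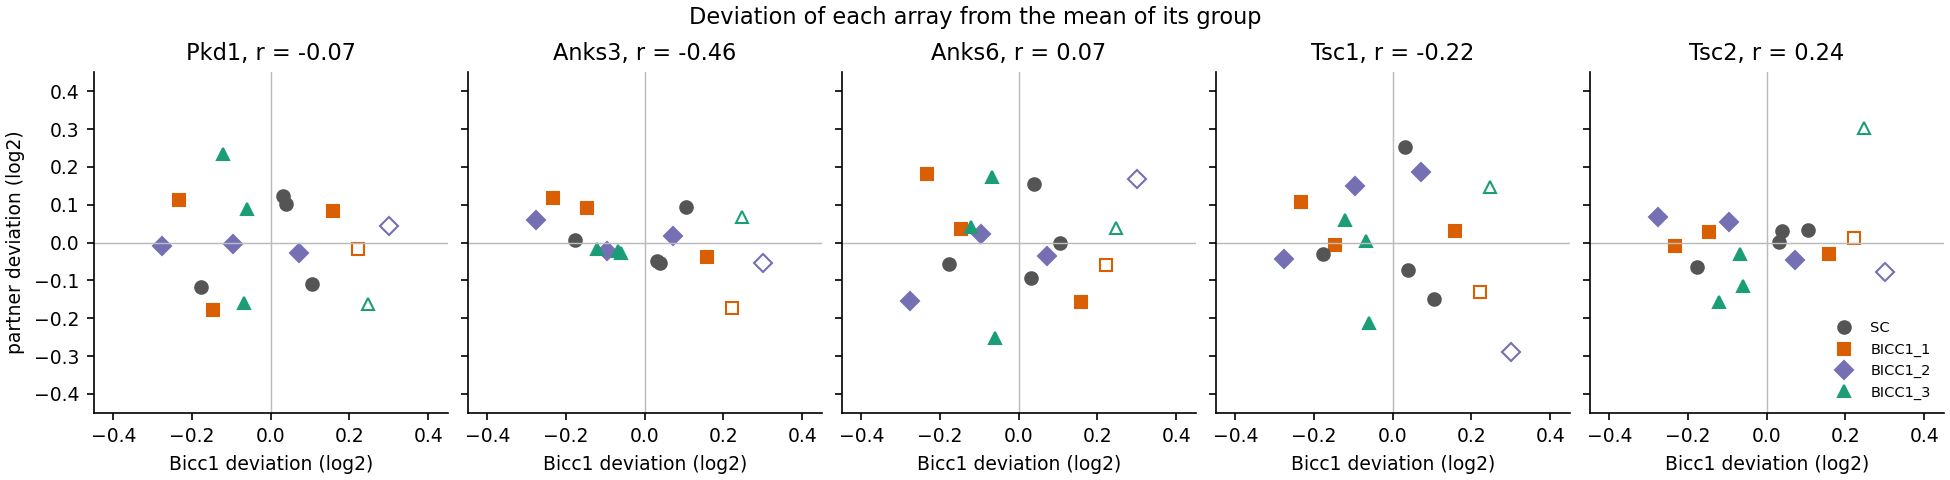
Deviation of each partner from its group mean (vertical, log2) against that of Bicc1 (horizontal, log2) on the 16 arrays, 1 panel per partner with Pearson's r; open symbols are the 3 arrays that stood apart. The r values of Pkd1 and Anks6 are -0.07 and 0.07, and the negative r of the brightest Anks3 probe, -0.46, has an exact permutation p of 0.148.

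No pair of partners passed the test inside the groups. Of 10 pairs, the most negative was Pkd1 with its chromosomal neighbour Tsc2 (r = -0.52, rho = -0.37; exact permutation p = 0.168 and 0.201) and the smallest p was that of Anks3 with Tsc2 (r = 0.31, rho = 0.31; exact permutation p = 0.0705 and 0.189). Adjusted over the 10 pairs, no p was below 0.657. Anks3 and Anks6, which bind one another as proteins, gave r = 0.16 (exact permutation p = 0.623), and Tsc1 and Tsc2, the subunits of one complex, gave r = 0.31 (exact permutation p = 0.302) with -0.27 once the 3 arrays that stood apart were left out. The 5 partners were also read over 8 arrays at a time, without subtraction of group means. These were the 8 with Bicc1 near control (SC and BICC1_3) and the 8 with Bicc1 low (BICC1_1 and BICC1_2). The 8 arrays were reordered across both groups, so each relation joins the difference between the groups with the spread inside them. None of these 10 relations had an adjusted p below 0.576 (exact permutation), and they do not answer the question inside groups.

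Over all 16 arrays, siRNA included, Anks3 ranked number 4 of 8831 genes with a symbol in likeness to Bicc1, with r = 0.80. This r joins differences between groups with those inside them and is a description with no test, since Bicc1 falls into clusters by siRNA. The genes most like Bicc1 were Get1 (0.85), a receptor subunit for the insertion of tail-anchored proteins, Tnrc6c (0.85), a microRNA silencing factor, Ergic1 (0.81), a component of the early secretory pathway, Anks3 (0.80) and Rrm2b (0.80), a p53-induced ribonucleotide reductase subunit. The most opposed were Spg20 (-0.85), Kcnj15 (-0.85), a potassium channel, and Iqgap2 (-0.83). Between the 5th and 95th percentile of all genes r ran from -0.46 to 0.42. Pkd1 stood at -0.29, Anks6 at 0.20, Tsc1 at 0.44 and Tsc2 at 0.10.

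These likenesses rest on BICC1_2 for most of the genes. Ergic1 differed from SC by -1.10 with BICC1_2 (limma adjusted p = 9.27e-07) and by 0.04 with BICC1_1, and Tnrc6c by -0.53 (limma adjusted p = 0.00899) and -0.13. Get1 differed by -0.41 and -0.04 and Rrm2b by -0.37 and 0.00 for BICC1_2 and BICC1_1, with adjusted p above the threshold. Anks3, at -0.32 and -0.18 on its brightest probe, had the most negative BICC1_1 value of these 5, which was not tested against theirs, and its second probe stood at -0.51 and 0.03.

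The wider pathway was read through 4 lists of genes, of which 36 were tested. Of 10 genes of the inversin compartment and of ANKS binding, 4 were tested, and 0 passed in either direction in any of the 6 comparisons, at a median difference from SC of 0.05, 0.06 and 0.09. Glis2, a transcription factor of nephronophthisis, had the smallest F-test p of the list: it read 5.57 to 5.63 on the BICC1_2 arrays and 5.72 to 6.07 in SC (difference -0.36, SE 0.16, limma adjusted p = 0.92). Such levels are near that of Tsc1 (mean 5.94), close to the floor of detection. Nphp4, a ciliary transition zone protein, read 7.76 to 7.88 with BICC1_1 and 7.50 to 7.70 in SC (difference 0.20, SE 0.08, limma adjusted p = 0.678). Both pairs of groups were free of overlap, as were 6.6% of all genes for BICC1_2 against SC and 6.35% for BICC1_1 against SC, and neither difference passed the test.

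Of 16 genes of polycystin maturation and polycystin relatives, 8 were tested and 0 passed, with medians of -0.07, -0.06 and -0.01 against SC. Pmm2, a phosphomannomutase of N-glycan synthesis, differed by -0.06, -0.14 and 0.03, and Alg8, a glucosyltransferase of the same pathway, by -0.02, -0.13 and -0.11. Sec61b, a subunit of the protein translocation channel and named after its values were seen, differed by -0.66 with BICC1_3 (SE 0.34, limma adjusted p = 0.563), reading 9.68 on replicate 1, which stood apart, and 11.61 to 11.80 on the other 3, beside 11.78 to 11.91 in SC. Of 14 deadenylase subunits and reported Bicc1 targets, 8 were tested and 0 passed, with medians of 0.00, 0.04 and -0.02. Cnot9 differed by -0.01, 0.16 and -0.01 and Cnot10 by -0.10, -0.16 and -0.16, both subunits of the CCR4-NOT complex. Adcy6 and Pkia, reported as mRNAs that Bicc1 binds in mouse kidney, were among those that did not pass.

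Of 19 genes around TSC and mTORC1, 16 were tested and 0 passed, with medians of -0.02, 0.02 and -0.03. Rragd, a GTPase that recruits mTORC1 to lysosomes, differed by 0.41 with BICC1_1 (SE 0.14, limma adjusted p = 0.577), 0.15 with BICC1_2 and 0.08 with BICC1_3. Its group means, 5.77 to 6.19, also lay close to the floor of detection. Lamtor1, the lysosomal anchor of those GTPases, differed by -0.01, 0.03 and -0.27. Inside the groups 0 of the 36 genes followed Bicc1 past the test (0.0732% of all genes did), and the smallest adjusted p was 0.0764, in the TSC and mTORC1 list. Without adjustment 12 of the 36 had a p under 0.05, beside 26.5% of all genes. Medians over all genes tested were 0.00, 0.00 and -0.01 for the same comparisons.

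**Figure D5:**
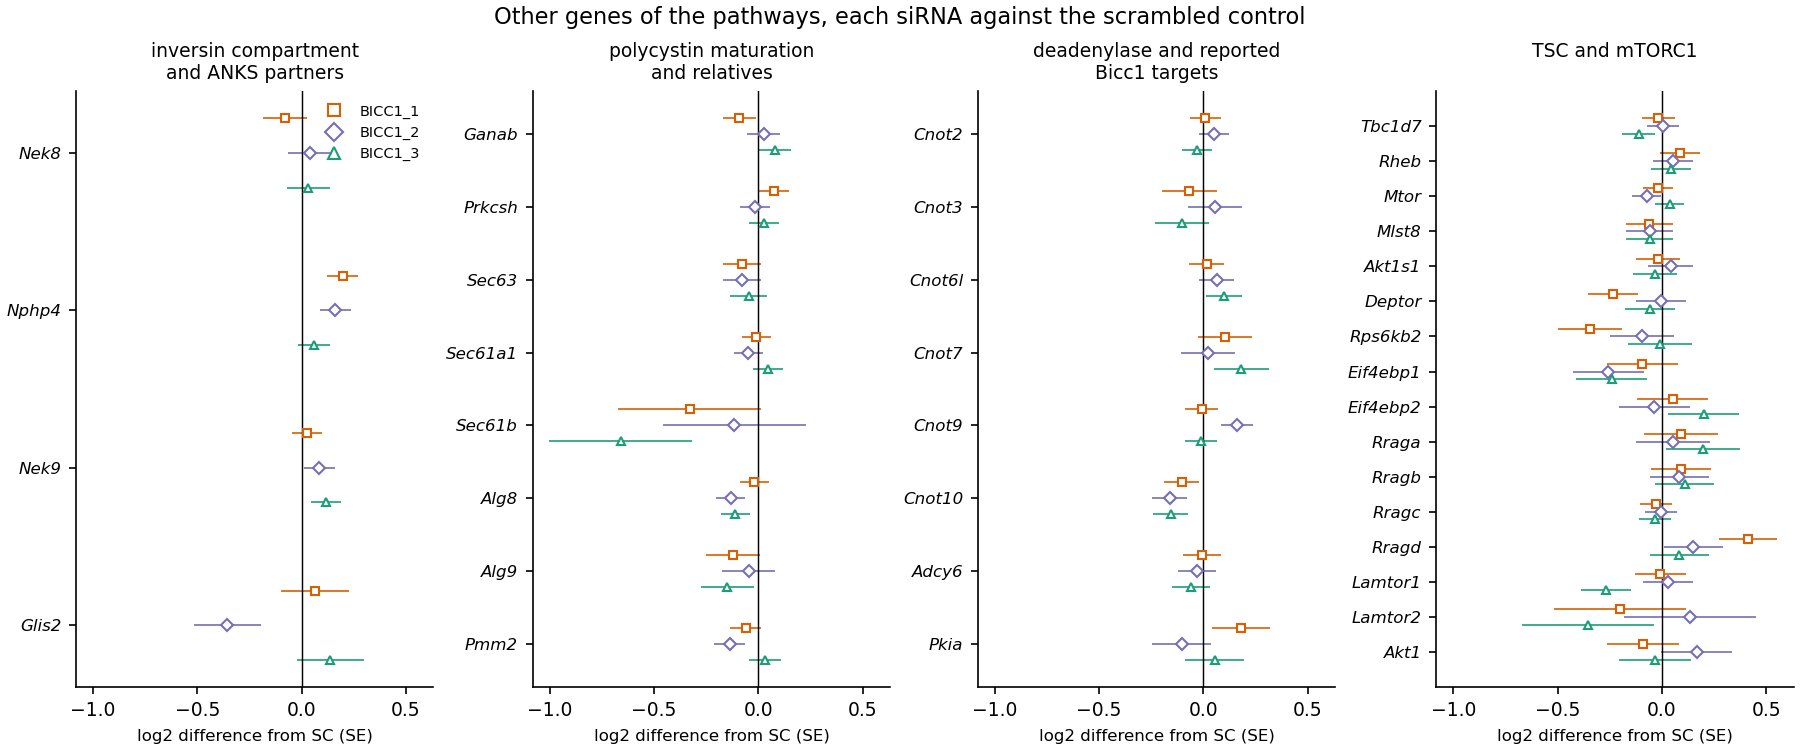
Log2 difference from SC with its standard error for the 36 tested genes of 4 pathway lists, 3 siRNAs per gene; open symbols mark differences that did not pass the test, which all of these are. Most lie within 0.2 of 0. Sec61b with BICC1_3 at -0.66, Rragd with BICC1_1 at 0.41 and Glis2 with BICC1_2 at -0.36 are among those farther out. Rragd and Glis2 lay close to the floor of detection.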

How the data were processed

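The deposited table holds, per the file headers, a mean bead intensity per probe and array on a linear scale, not normalised between arrays, with a detection score beside it. Since bright probes score near 1, its complement served as the detection p. A second table deposited by the authors holds log2 values whose normalisation is not given in the sources used here, and it served as an alternative only. The submitters' processing notes name GenomeStudio.

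Intensities were processed with neqc in limma 3.58.1 (R 4.3.3): normal-exponential background correction, an offset of 16, quantile normalisation and log2. Probes with a detection p under 0.05 on at least 4 arrays were kept, 12802 of 25697. The probe with the highest mean stood for each gene, which left 9560 genes or unnamed probes. Symbols came from the platform annotation. One limma model (lmFit, eBayes) over the 4 groups gave 6 comparisons, Benjamini-Hochberg adjusted over all 9560 with a threshold of 0.05, and intervals of 95%. A further model added the deviation of Bicc1 from its group mean. Exact permutation tests reordered arrays within groups, except that the readings of 8 arrays at a time reordered them across the groups read together. Deviations from the group means of same-numbered BICC1_1 and BICC1_2 arrays correlated at 0.182 to 0.609 over all genes, so these 8 arrays were also fitted as pairs. The highest was that of replicate 3, where both arrays stood apart. The labels do not say what a number shares. The fits were tested on simulated data. No 2 arrays held identical values, and the number of arrays limits the precision.

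The members, the lists and the 3 arrays treated as apart were chosen with earlier results of these data known. Named genes were the 6 members, the 2 genes of each pathway list with the smallest F-test p, the 5 genes most and 3 least correlated with Bicc1, and the 3 with the smallest within-group p. A few genes outside this rule were named after their values were seen. The alternatives were other normalisations, filters, probes and models, and each array left out in turn.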

Additional observations from a re-analysis of the deposited data

Results flagged for a closer look

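The 3 groups below are listed because 1 array lay far from the other 3, by the gap to its nearest neighbour over the range of the group set against Dixon's critical value for 4. Chance marks about 1 in 20 groups, and 40 groups of 4 were looked at. Bicc1 read 10.70 on BICC1_3 replicate 1, above 10.33 to 10.39 on its other arrays (ratio 0.834). The brightest Anks3 probe read 9.58 on the same array, above 9.48 to 9.49 (ratio 0.875). The second Anks6 probe read 5.48 on SC replicate 4, below 5.90 to 5.94 (ratio 0.912), near the floor of detection. BICC1_3 replicate 1 is also the array with the lowest Nduf median, -1.46.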

How the results depend on the processing

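The fall of Bicc1 with BICC1_2 and its excess with BICC1_3 over BICC1_2 passed the test in all 28 alternatives. The other 3 called Bicc1 differences kept their direction but lost the call under some. Median scaling gave -0.85 for BICC1_1 against SC (limma adjusted p = 0.224), -0.68 for BICC1_2 against BICC1_1 (0.201) and 0.72 for BICC1_3 against BICC1_1 (0.306). Fits of 2 groups at a time, which use fewer arrays, gave -0.90 (0.145), -0.69 (0.186) and 0.80 (0.347). BICC1_2 against BICC1_1 also lost it with the authors' deposited table (-0.53, 0.0503), with no detection filter (-0.69, 0.0588) and with every probe tested singly (-0.69, 0.0519). Leaving out 1 array gave -0.97 to -0.82, -0.79 to -0.60 and 0.72 to 0.87. The first call was lost without SC replicates 1, 2 or 3, BICC1_1 replicates 1, 2 or 4, BICC1_2 replicates 1 or 2, or BICC1_3 replicates 2 or 3 (adjusted p 0.0507 to 0.169). The second was lost without SC 1, 2 or 3, BICC1_1 1, 2 or 3, BICC1_2 1, 2 or 4, or BICC1_3 2, 3 or 4 (0.0514 to 0.165), and the third without SC 3, BICC1_1 1, 2 or 4, BICC1_2 2, or any BICC1_3 array (0.0509 to 0.136). The cause of these losses was not tested.

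Of 30 partner differences under 28 alternatives, 840 values in all, 2 passed the test, both of Anks3, which makes the count of partners 1 in place of 0: BICC1_2 against SC with array quality weights, and BICC1_3 against BICC1_2 with the authors' deposited table (0.26, limma adjusted p = 0.0392). Uncalled values changed sign in 28 of the 840, over 8 differences. Within groups, by a limit on r set after its values were seen, r moved to 0.51 for Pkd1, 0.35 for Anks3 and 0.60 for Tsc2 under median scaling, and to 0.10 for Tsc1 and -0.12 for Tsc2 without the 3 arrays that stood apart. Without single arrays it ran from -0.40 to 0.10 for Tsc1, the highest without BICC1_2 replicate 3, and from -0.32 to 0.43 for Tsc2, the lowest without BICC1_3 replicate 1. The count of partners following Bicc1 stayed at 0 in all 27 alternatives, while that of all genes, 7 in the reported fit, was 0 to 1673, highest under median scaling. Counts of all genes between groups also moved by over 1.5 times: 0 to 30 (reported 2), 2 to 60 (5), 0 to 14 (1), 2 to 71 (27), 0 to 10 (7) and, for BICC1_3 against BICC1_2, 2 to 19 (11). The second Anks3 probe, added after the data were seen, passed for BICC1_2 against SC in 3 of 28 and differed by -0.13 in the authors' deposited table.

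Same-number correlations were above 0.1 for 4 of 4 pairs of BICC1_1 and BICC1_2 arrays, beside 0 to 2 of 4 for any other 2 groups. The highest, 0.609, was that of replicate 3, where both arrays stood apart, and the others ran from 0.182 to 0.257. Replicate 2 of BICC1_3 and BICC1_1 reached 0.525. With a replicate block on those 8 arrays alone, chosen after seeing the data, BICC1_2 against BICC1_1 kept the Bicc1 call (-0.69), 0 partners passed and 12 genes passed in place of 27. With a replicate block over all groups Bicc1 against SC gave adjusted p = 0.0142 for BICC1_1 (-0.90), no partner passed, and 1, 4 and 6 genes passed for BICC1_1 and BICC1_3 against SC and BICC1_2 against BICC1_1. The files give no slide, so that block was not run.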
